A study of Mus musculus with 2 samples.

Results

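Beta-defensin genes were taken as all protein-coding genes whose symbol is Defb followed by a number. The rule gave 42 genes, each on 1 line of the deposited table, out of 22046 protein-coding genes and 54532 genes in all. They lay in clusters on chromosomes 1, 2, 8 and 14, and all 42 had the same coordinates in GENCODE M21 (GRCm38, also called mm10). Members were taken by name, with no filter on their level. The choice was made with earlier results of these data known.

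The samples were abdominal adipose tissue from mice of 2 genotypes, WT and Trappc9 knock out, aged 3 to 4 weeks. Trappc9 encodes a subunit of the TRAPP complex, which acts in vesicle traffic. The design text speaks of 3 WT and 3 knockout mice whose pads were digested with collagenase, the titles of adipose-derived stem cells, and the extraction label of frozen pads. Each genotype had 1 library. The sex of the mice, the Trappc9 allele and whether mice were pooled are not given in the sources used here. With 1 library per genotype, no difference below has a replicate check and no p-value is given. The targeted gene, Trappc9, had 9.94 and 12.6 FPKM (WT label, then KO label). Its gene-level value was therefore not reduced, and the libraries are named by their labels.

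Levels are deposited FPKM values, fragments per kilobase of gene length with the submitters' scaling of each library, always given with the library labelled WT first. A ratio is the FPKM in the library labelled KO over that in the library labelled WT. Its 95% interval is an exact Clopper-Pearson interval on the fragments recovered from the FPKM values, 13705193 and 14783728 in all. Only counting error enters these intervals; variation between mice or preparations does not, and the reads are not known to carry molecular identifiers. A gene is called at least 2-fold higher or lower when its log2((KO + 1)/(WT + 1)) reached 1 in size and its mean was at least 1 FPKM. Genes with such a mean are called measured. In bulk tissue, fewer cells of a type and less RNA per cell cannot be told apart.

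Beta-defensins are small secreted cationic peptides held together by disulfide bonds between conserved cysteines. Several kill microbes by disturbing their membranes, and a few are made by skin, airway and gut epithelium. In rodents a large share of the family is made instead by the epididymis, where sperm complete their maturation; the peptides enter its lumen and can bind to the sperm surface. Adipose tissue is not a known major site.

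Beta-defensin transcripts were abundant in both libraries. The family took 0.602% of all fragments in the library labelled WT (95% Clopper-Pearson interval 0.598% to 0.606%) and 0.736% in the library labelled KO (0.731% to 0.740%). Per length the share was larger, 3.36% and 3.64% of the summed FPKM of all genes. Of the summed FPKM of protein-coding genes alone it was 3.70% and 4.06%. The median beta-defensin gene was 381 bases long against 4201.5 for all measured protein-coding genes. The level was at least 100 FPKM for 9 genes in the library labelled WT and for 14 in the library labelled KO. It was at least 10 FPKM for 25 and 29 genes.

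A few genes made up most of the family's level. Defb47 was the fourth most abundant protein-coding gene of the library labelled WT at 3585 FPKM, and Defb20 the seventh at 2175 FPKM. With Defb25 at 1202 FPKM these held 65.2% of the family's summed FPKM there. In the library labelled KO the order changed. Defb20 led with 3073 FPKM, Defb48 (2193 FPKM) and Defb47 (2174 FPKM) were nearly level, and Defb25 followed with 1532 FPKM, together 67.4% of the sum. Of the 42 genes, 33 were measured. None of these passed through 1 library alone, as the lowest value of any of them in either library was 3.90 FPKM.

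**Figure D1:**
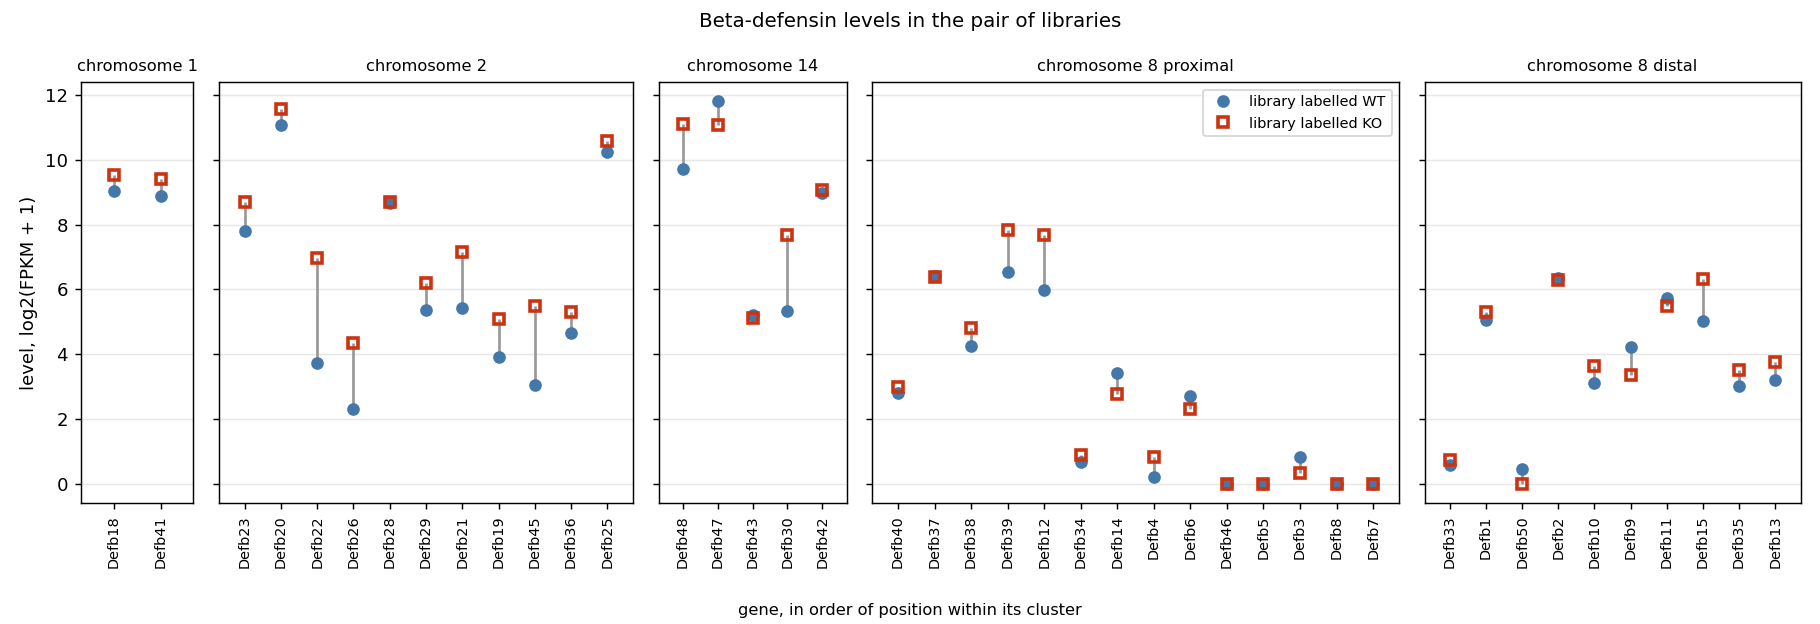
Level of each of the 42 genes as log2(FPKM + 1), vertical axis, in the library labelled WT (filled circles) and the library labelled KO (open squares), in order of position within each cluster along the horizontal axis. The chromosome 2, 14 and 1 clusters hold the highest levels, and several chromosome 8 genes are at or near 0.

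Between the libraries the family stood higher in the library labelled KO, by amounts that differed widely from gene to gene. The summed level was 10681 FPKM and 13317 FPKM, a ratio of 1.25, and the ratio of summed fragments was 1.31 (interval 1.29 to 1.32). Of the 33 measured genes, 10 were at least 2-fold higher, against 0.948% of all 13084 measured protein-coding genes, and 0 were at least 2-fold lower, against 0.29%. The counting interval lay above 1 for 21 genes, where 24.6% of all measured protein-coding genes did so, and below 1 for 2 genes, against 17.6%. For the other 10 it included 1. The median log2 ratio of the 33 genes was 0.53, beside 0.02 for all measured protein-coding genes. Among members, Defb19 (14.2 and 33.2 FPKM) was just inside the 2-fold limit with a log2 ratio of 1.17, and Defb23 (224 and 417 FPKM) just outside with 0.89.

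**Figure D2:**
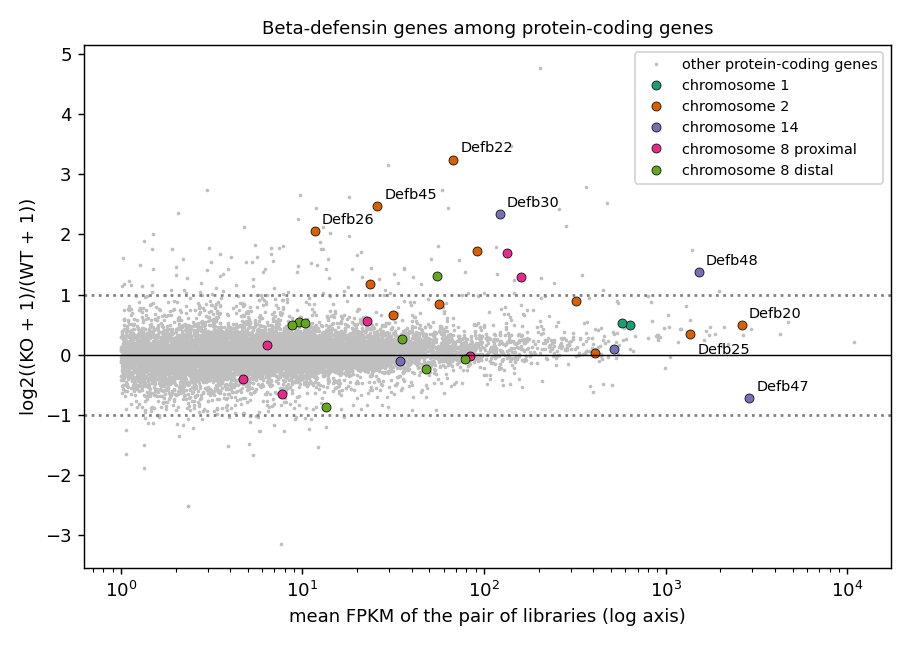
Log2((KO + 1)/(WT + 1)), vertical axis, against the mean FPKM of the pair of libraries on a log axis, for 13084 measured protein-coding genes; coloured points are the 33 measured beta-defensin genes by cluster. Dotted lines mark 2-fold; 10 coloured points lie at or above the upper line and 0 at or below the lower one.

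The chromosome 2 cluster, 11 genes between 152459055 and 152623053, held the largest ratios of single genes, those of Defb22 and Defb45. All 11 genes were measured. Of these, 5 were at least 2-fold higher, and the interval lay above 1 for 10. Defb22, the mouse counterpart of a primate gene whose peptide coats sperm, stood at 12.1 and 123 FPKM from 108 and 1108 fragments. Its ratio of 10.2 (interval 8.33 to 12.5) was the largest of the family, and moved it from rank 4268 to rank 328 among protein-coding genes. Next by ratio was Defb45 at 7.17 and 44.2 FPKM, 6.17-fold (4.69 to 8.25). For Defb26 the values were 3.90 and 19.4 FPKM, 4.98-fold (3.37 to 7.58), on 31 and 156 fragments. Defb21 was at 41.8 and 141 FPKM, 3.37-fold (2.93 to 3.89). Defb19, also known as Tdl, had a ratio of 2.34 (1.79 to 3.09).

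Genes with small ratios lay beside these. Defb20, the most abundant of the cluster, had a ratio of 1.41 (1.39 to 1.44) and is the neighbour of Defb22. Defb28, at 406 and 412 FPKM on the far side of Defb26, had a ratio of 1.02 (0.958 to 1.08), which includes no difference. Defb25, at the distal end, was at 1202 and 1532 FPKM, 1.27-fold (1.23 to 1.32). Intermediate ratios were found for Defb23 (1.86), Defb29 (1.81, at 40.3 and 72.9 FPKM) and Defb36 (1.61, at 24.0 and 38.7 FPKM). Because Defb20 and Defb25 held 81.4% and 78.0% of the cluster's level, its sum differed by only 1.42-fold, 4150 and 5907 FPKM.

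The promoters of Defb20 and Defb22 are shown because these neighbours had a small and the largest ratio. The 250 bases before each annotated start, from RefSeq (GRCm38.p6), lie at chr2:152476813-152477062 on the plus strand for Defb20 and at chr2:152490139-152490388 on the minus strand for Defb22. Capitals would mark a match to 1 of the motifs described below with the chromosome 14 promoters, and neither window holds one.
Defb20: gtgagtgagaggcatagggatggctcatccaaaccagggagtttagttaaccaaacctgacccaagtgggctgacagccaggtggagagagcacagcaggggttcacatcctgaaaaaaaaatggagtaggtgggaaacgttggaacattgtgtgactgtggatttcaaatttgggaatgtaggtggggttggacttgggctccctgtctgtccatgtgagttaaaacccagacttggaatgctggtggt
Defb22: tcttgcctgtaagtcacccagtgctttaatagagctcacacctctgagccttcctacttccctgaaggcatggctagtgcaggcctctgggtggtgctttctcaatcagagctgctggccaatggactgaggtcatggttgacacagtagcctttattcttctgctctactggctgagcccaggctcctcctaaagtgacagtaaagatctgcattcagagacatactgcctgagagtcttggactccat

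Genes beside the chromosome 2 cluster had ratios near 1. The nearest protein-coding gene before it, 6820408C15Rik, was at 4.50 and 4.30 FPKM, and Rem1, the nearest after it, at 34.3 and 33.4 FPKM, a ratio of 0.974 (0.893 to 1.06). Within the cluster, between Defb29 and Defb21, the predicted gene Gm17416 is annotated as a single 201-base protein-coding stretch. It stood at 943 and 1646 FPKM, 1.75-fold (1.66 to 1.83), close to the levels of the abundant beta-defensin genes.

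**Figure D3:**
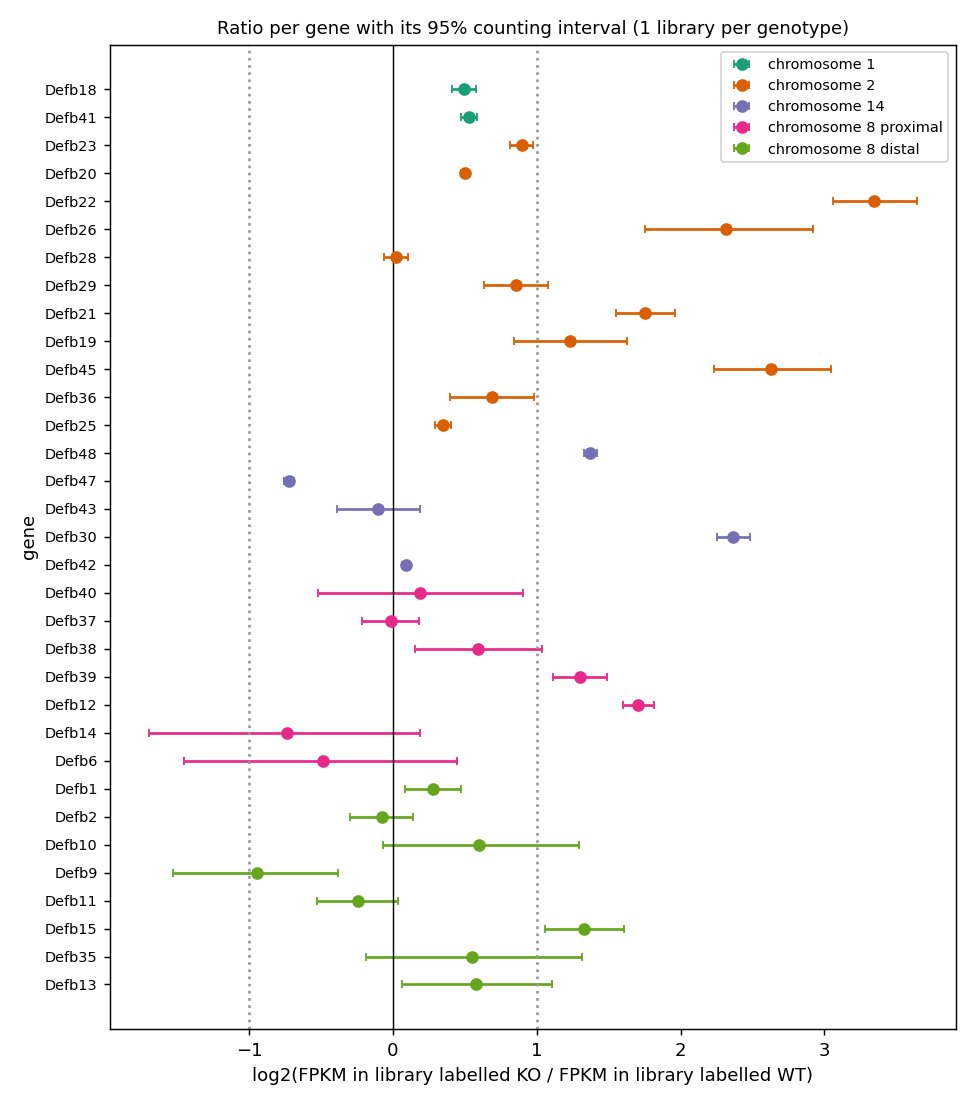
Log2 ratio of FPKM, library labelled KO over library labelled WT, for the 33 measured genes in order of position within each cluster, with exact 95% counting intervals as bars; the solid line is no difference and the dotted lines 2-fold. Defb22 lies farthest to the right at 10.2-fold, and the intervals of Defb47 and Defb9 lie wholly to the left of the solid line.

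The chromosome 14 cluster, 5 genes between 62977524 and 63058149, had nearly the same summed FPKM in both libraries but a different make-up. The sums were 5013 and 5142 FPKM, a ratio of 1.03 that fell below 1 under other scalings (0.892 after rescaling to TPM). The ratio of summed fragments was 1.13 (1.12 to 1.15). Without Defb47 the ratio of summed FPKM was 2.08. Defb47 was at 3585 and 2174 FPKM, a ratio of 0.606 (0.592 to 0.621), and its share of the cluster's level was 71.5% and 42.3%. Its neighbour Defb48 was at 848 and 2193 FPKM, 2.59-fold (2.51 to 2.67), with shares of 16.9% and 42.6%. These genes, which are transcribed away from each other from starts 13567 bases apart, thus stood on opposite sides of no difference, each far beyond counting error.

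The other genes of this cluster differed from one another as well. Defb30 was at 39.6 and 204 FPKM from 748 and 3892 fragments, 5.15-fold (4.76 to 5.58). Defb43 was at 35.8 and 33.4 FPKM, 0.933-fold (0.763 to 1.14). Defb42 was at 505 and 538 FPKM, 1.07-fold (1.04 to 1.09), a direction that reversed after rescaling to TPM. The spans of Defb30 and Defb42 overlap on opposite strands, but no exon base is shared in GENCODE M21. The flanking genes Wdfy2 (12.3 and 10.6 FPKM) and Ctsb, a lysosomal protease gene (80.2 and 83.1 FPKM), had ratios of 0.859 (0.799 to 0.924) and 1.04 (1.00 to 1.07).

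**Figure D4:**
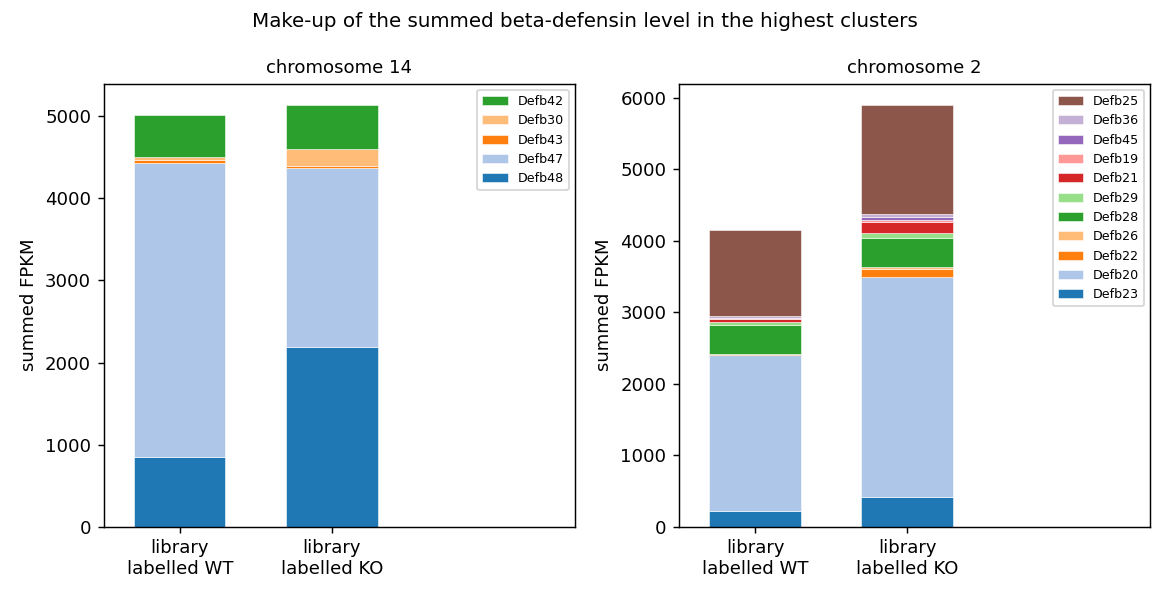
Summed FPKM of the chromosome 14 cluster (left) and the chromosome 2 cluster (right) in each library, with 1 coloured segment per gene. On chromosome 14 the bars are almost equally tall at 5013 and 5142 FPKM while Defb47 and Defb48 take different shares; on chromosome 2 the bars reach 4150 and 5907 FPKM, mostly Defb20 and Defb25.

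The promoters of Defb47 and Defb48 are shown because these neighbours went in opposite directions. The 250 bases before each annotated start lie at chr14:62997827-62998076 on the plus strand for Defb47 and at chr14:62984511-62984760 on the minus strand for Defb48. Capitals mark the motifs TATAAA, the core of the TATA box, and AGAACA, the hexamer repeated in androgen response elements.
Defb47: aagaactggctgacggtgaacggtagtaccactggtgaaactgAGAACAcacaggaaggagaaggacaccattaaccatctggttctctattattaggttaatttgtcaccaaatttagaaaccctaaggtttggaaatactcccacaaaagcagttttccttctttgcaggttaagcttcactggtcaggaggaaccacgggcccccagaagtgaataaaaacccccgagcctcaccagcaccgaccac
Defb48: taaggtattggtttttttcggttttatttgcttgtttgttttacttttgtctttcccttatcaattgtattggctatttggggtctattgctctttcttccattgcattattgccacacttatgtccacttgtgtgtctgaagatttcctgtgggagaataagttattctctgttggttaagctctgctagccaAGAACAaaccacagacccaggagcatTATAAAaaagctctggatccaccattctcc

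Both windows hold 1 AGAACA, and that of Defb48 also holds TATAAA, beginning 30 bases before its start. Motifs were searched on both strands in the 250 bases before the start. RefSeq held 30 such windows for 29 of the 42 genes, with more than 1 for Defb21. AGAACA was in 14 of the 30 (46.7%), against 16.1% of all 32851 RefSeq promoter windows. TATAAA was in 16.7%, against 12.4%. The full androgen response element palindrome, which contains that hexamer on both strands, was in 0 of 30 and in 0.00913% of all. CAGGAAGT, bound by ETS factors of the PEA3 subfamily, was in 3.33%, the window of Defb8, against 2.69% of all. The median GC content was 47.6% for beta-defensin windows and 52.4% for all windows. Of the 8 genes at least 2-fold higher that had a window, 4 had AGAACA in it, as did 10 of the 21 other genes. These are matches of letters and show no binding.

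On chromosome 8 the family lay in blocks separated by over 1 Mb. The proximal block, 14 genes between 18974940 and 19497775, had 7 measured genes. Its summed level was 280 and 561 FPKM, a ratio of 2.003, and the ratio of summed fragments was 2.39 (2.27 to 2.53). Defb39 and Defb12 together went from 155 to 432 FPKM of the summed level. Defb39 was at 92.7 and 228 FPKM, 2.46-fold (2.16 to 2.80), and Defb12 at 62.6 and 204 FPKM, 3.26-fold (3.03 to 3.52). Defb38, between Defb37 and Defb39, was at 18.0 and 27.1 FPKM, 1.51-fold (1.11 to 2.05). Defb37 had the same count of 419 fragments in each library (84.0 and 83.2 FPKM), a ratio of 0.990 (0.863 to 1.14). Defb40 was at 5.99 and 6.83 FPKM, 1.14-fold (0.696 to 1.88).

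The remaining genes of this block were at lower levels than Defb12, and some had no fragments. Defb14, the counterpart of a broadly antimicrobial human beta-defensin, was at 9.69 and 5.83 FPKM from 28 and 17 fragments, 0.601-fold (0.309 to 1.14). Defb3 and Defb4, known as inducible genes of airway and skin epithelium, were barely detected. Defb3 had 3 and 1 fragments and Defb4 1 and 5, so no difference in either was detectable at this depth. Defb6, related to them in sequence, was at 5.46 and 3.90 FPKM, 0.713-fold (0.366 to 1.36). Defb5, Defb7, Defb8 and Defb46 had 0 fragments in both libraries, which allows up to 0.685 to 1.22 FPKM, depending on gene length, at 3 fragments per library. Defb34 had 2 and 3 fragments.

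Spag11b and Spag11a, beta-defensin-like genes that the epididymis is known to express, lie inside this block next to Defb34. Spag11b was at 1470 and 2031 FPKM, 1.38-fold (1.36 to 1.40), and Spag11a at 72.1 and 103 FPKM, 1.43-fold (1.26 to 1.62). The annotated gene Gm45826 spans both and can share their reads. Before the block, Xkr5 was at 2.40 and 1.64 FPKM, and after it 4930467E23Rik had 1 and 0 fragments.

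The distal chromosome 8 block held 10 genes between 20892669 and 21948850, of which 8 were measured. The block from Defb1 to Defb13 is the stretch whose deletion has been reported to make male mice infertile. Its summed level, 238 and 282 FPKM with a ratio of 1.19, was the least of all clusters, and no gene reached 100 FPKM. Defb15 was the only one at least 2-fold higher, at 31.3 and 78.6 FPKM, 2.51-fold (2.08 to 3.05); 200 of its 345 exon bases are overlapped on the other strand by Gm36879 (2.71 and 2.82 FPKM). Defb9 was at 17.8 and 9.25 FPKM from 78 and 41 fragments, 0.521-fold (0.348 to 0.769), the lowest ratio among measured members. Defb1, which many epithelia make without induction, was at 31.9 and 38.6 FPKM, 1.21-fold (1.06 to 1.39).

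Defb2 (81.0 and 76.8 FPKM) and Defb11 (51.7 and 43.7 FPKM) were among the more abundant genes of the block, with ratios of 0.948 (0.813 to 1.10) and 0.845 (0.696 to 1.03). Only part of the 50-base stretches of each transcript was examined, such as 55 for Defb2 with its 305 bases. Of those examined in Defb2 and in Defb11, 20% occur in another gene. For Defb10 (7.58 and 11.5 FPKM, 1.52-fold with an interval of 0.952 to 2.45) the share was 9.43%. The values of these genes are uncertain for that reason, to an extent that was not measured. Apart from these and a single stretch in Defb42, no sharing was found for the examined stretches of beta-defensin transcripts in GENCODE M21. Sharing can have been missed by this partial search. Defb35 (7.14 and 10.5 FPKM) and Defb13 (8.28 and 12.4 FPKM) had ratios of 1.47 (0.878 to 2.49) and 1.49 (1.04 to 2.16). Defb33 had 3 and 4 fragments and Defb50 2 and 0.

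Between Defb33 and Defb1 lie the alpha-defensin genes, known for their role in Paneth cells of the gut. Of 22 with a Defa symbol, 20 had 0 fragments in both libraries and the others at most 2. Shared stretches were not looked for in these genes, and how reads matching several genes were counted is not known. In the same interval, Gm15056 and Gm6040 carry the older symbols Defb52 and Defb51 in RefSeq and were outside the naming rule. Gm15056 was at 8.60 and 14.7 FPKM, 1.70-fold (1.25 to 2.33), and Gm6040 at 50.5 and 68.0 FPKM, 1.35-fold (1.21 to 1.50). Next to them AY761185 was at 125 and 201 FPKM, 1.60-fold (1.47 to 1.75). Transcripts in this interval were thus counted at its edge beside Defb33, whereas counts in the alpha-defensin array were at or near 0.

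The smallest cluster, on chromosome 1 between 18236473 and 18265138, held Defb18 and Defb41. Defb41, known from principal cells of the proximal epididymis, was at 472 and 682 FPKM, 1.44-fold (1.39 to 1.50), and Defb18 at 528 and 744 FPKM, 1.41-fold (1.33 to 1.50). The intervals of these neighbours overlapped. The nearest protein-coding gene before them was Crisp4, which encodes a secreted protein that binds sperm in the epididymis, at 19.1 and 53.5 FPKM, 2.80-fold (2.57 to 3.05). The nearest on the other side, Tfap2d, had 0 fragments in both libraries.

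Markers of other cell types were read beside the family. All 12 markers of epididymal principal cells were measured, with summed levels of 21472 and 29107 FPKM, a ratio of 1.36. Of these, 4 were at least 2-fold higher (Lcn5, Lcn9, Cst8 and Rnase9), Lcn9 most at 646 and 2154 FPKM. The lowest ratio was that of Ros1, at 39.7 and 40.2 FPKM. Male germ cell markers, 8 of 8 measured, summed to 47.0 and 178 FPKM, with 6 at least 2-fold higher. The other members of that list were lower in value: Dmrtb1 stood at 10.3 and 5.57 FPKM, 0.541-fold (0.445 to 0.655), and Sycp3 at 1.28 and 0.719 FPKM, 0.560-fold (0.260 to 1.15). The sums of both lists had ratios above 1, like the beta-defensin sum, and their part in its difference was not tested.

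Adipose markers were at lower levels than the epididymal ones. The 6 adipocyte markers summed to 36.5 and 34.4 FPKM. Most of that sum was Fabp4, a fatty acid carrier gene, at 25.1 and 27.0 FPKM, 1.08-fold (1.01 to 1.15). Adipoq, the adiponectin gene, was at 2.30 and 0.506 FPKM, the 1 adipocyte marker at least 2-fold lower. The 6 adipose stromal markers summed to 321 and 293 FPKM, or 0.182% and 0.145% of all fragments. The counting interval lay above 1 for 2 of them and below 1 for 4. The lowest ratio was that of Cd34, at 52.6 and 27.4 FPKM, 0.520-fold (0.497 to 0.544). Stratified epithelium, another source of beta-defensins, was represented by Krt5 (49.1 and 43.1 FPKM) and Krt14 (41.3 and 38.1 FPKM), which basal cells of ducts also make, while Krt6a and Ivl had 0 fragments in both libraries. Its 7 markers summed to 108 and 94.6 FPKM, of which 4 were measured. Neutrophil markers summed to 6.82 and 3.37 FPKM over 7 genes; Elane had 0 fragments in both libraries, and Camp and Cxcr2 had 2 and 0.

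Antimicrobial proteins, mostly of other families, were listed for comparison. The list includes Spag11a and Spag11b, the beta-defensin-like genes given above with the proximal chromosome 8 block. Of 26 genes listed, 16 were measured, with a median log2 ratio of 0.10, 1 at least 2-fold higher and 0 lower. That gene was Ltf, which encodes the iron-binding protein lactoferrin, at 4.26 and 21.8 FPKM, 5.12-fold (4.41 to 5.97). Lcn2, which binds bacterial siderophores, was at 784 and 977 FPKM, Bpi at 53.7 and 71.2 FPKM, and Lyz2, the macrophage lysozyme, at 91.0 and 98.9 FPKM. Of 8 receptor genes reported for beta-defensins, 4 were measured (Ccr2, Tlr2, Tlr4 and Egfr), none at least 2-fold different. Ccr6, the chemokine receptor best known to bind them, had 0 fragments in both libraries.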

How the data were processed

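The Illumina TruSeq RNA kit was used for both libraries, per the labels' protocols. For every gene the authors deposited its FPKM in each library beside gene length, position and biotype. The submitters' processing notes list the aligner HISAT2 2.0.5, with mm10 and hg38 as builds; the counting program, its use of strand and the read length are not given in the sources used here. The product of FPKM and gene length was a whole number of equal steps (tolerance 0.01 of a fragment) for 100% of values above 0, and this number was taken as the fragments behind each value. A fragment on 1 kb corresponded to 0.0706 FPKM (WT label) and 0.0699 FPKM (KO label). These factors do not follow the recovered totals of 13705193 and 14783728 fragments, so the deposited scaling was not by these totals alone. Rescaling to the totals gave a ratio of family sums of 1.17 in place of 1.25. No further scaling was applied.

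Clusters were split where neighbouring starts lay over 1 Mb apart. Ratios, intervals and medians were computed in Python 3.11.15 with scipy 1.17.1, and the recovery of fragments and the intervals were tested on simulated data. Measured members are given with both values and their ratio, the others by count or fragments; Defb1, Defb3, Defb4 and Defb14, the nearest genes beside each cluster, Spag11a and Spag11b and the marker lists were named whatever their level. Gm17416, Gm45826, Gm15056, Gm6040, AY761185 and Gm36879 were named after their values were seen, and the motifs and the 4 printed promoters were chosen then too. The members and lists were chosen with earlier results of these data known. Alternatives were other pseudocounts, filters, scalings and cluster gaps.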

Additional observations from a re-analysis of the deposited data

How the results depend on the processing

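The count of genes at least 2-fold higher, 10, stayed between 9 and 11 over 9 alternatives. With a pseudocount of 5 FPKM, Defb19 was no longer among them, and after rescaling to TPM Defb4, which rests on 1 and 5 fragments, was added. The count of genes at least 2-fold lower was 0 except after rescaling to TPM, where it was 2 (Defb3, on 3 and 1 fragments, and Defb9); relative to the median of all genes it was again 0. The median log2 ratio of measured protein-coding genes was 0.02 over 13084 genes. After rescaling to TPM it was -0.17 over the 14884 genes that then passed the filter, so the sets differ. On that scale the ratio of sums was 1.08 for the family, 1.24 for chromosome 1 and 1.24 for chromosome 2. It was 1.74 and 1.03 for the proximal and distal chromosome 8 blocks and 0.892 for chromosome 14. Rescaling to the recovered totals gave 1.17 for the family, 1.33 for chromosome 1, 1.33 for chromosome 2, 1.88 for the proximal chromosome 8 block and 0.960 for chromosome 14. Under these scalings the log2 ratio of Defb42 was -0.11 and -0.0042. Without its most abundant gene, the ratio of sums was 1.57 for the family, 1.78 and 1.31 for the proximal and distal chromosome 8 blocks and 2.08 for chromosome 14. Adding Gm15056 and Gm6040, chosen after seeing the data, left both counts at 10 and 0. Summing genes with similar proteins was not run, since no protein sequences were used here. No paired analysis was possible because each genotype had 1 library. Depth limits the genes with few fragments, whose intervals are wide.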

Other observations

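Most members at least 2-fold higher lay on the minus strand, a pattern noticed in the values. Of the 19 measured genes on the minus strand, 9 were at least 2-fold higher, and of the 14 on the plus strand, 1 was (Defb21). Over all measured protein-coding genes the share was 0.948%, which was not split by strand. On chromosome 2 the numbers were 4 of 7 on the minus strand and 1 of 4 on the plus strand. Neighbouring genes on 1 strand are not independent of each other, and no test was made.

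The ratio was also set beside the mean level of the pair of libraries. Across the 33 measured genes, which share their libraries, Spearman's rho between mean FPKM and ratio was 0.092, given as a description. The value in the library labelled KO enters both the mean and the ratio. This rho therefore cannot show whether the ratio depended on the level. At or above a mean level of 100 FPKM, 4 of 12 genes were at least 2-fold higher, and below it 6 of 21. That split has the same limit. Of those 4, Defb39, Defb12 and Defb30 were at 92.7, 62.6 and 39.6 FPKM in the library labelled WT, and Defb48 at 848 FPKM. The pseudogene Defb44-ps, beside Defb18 on chromosome 1, had 3 and 8 fragments.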
